A study of Mus musculus with 32 samples.

Results

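The G2 and mitosis genes described here are 30 genes that cells use between the end of DNA synthesis and the separation of the daughter cells. They were taken by name from a list of symbols, out of 54087 genes in the deposited tables, and 30 of 30 were among the 14313 genes with enough counts to be tested. They were read in regulatory T cells (Tregs), the Foxp3-expressing CD4 T cells that restrain immune responses. The cells were GFP-positive Tregs of C57BL/6 mice carrying a Foxp3-IRES-GFP knock-in, 2.5 months old, so that all 11 groups share this strain, allele and age. A resting group of 3 libraries was compared with cells stimulated for 18 h or 36 h by plate-bound anti-CD3 plus anti-CD28 in medium holding 10 ng/ml of mouse IL-2. At each time a control group of 3 libraries had no agonist. The TNFR2 group received TNC-sc(mu)TNF80, named STAR2, at 12 ng/ml. The 4-1BB group received 10 µg/ml of the antibody 3H3. TL1A, the ligand of DR3, was given at 12 ng/ml, and OX40L, the ligand of OX40, at 100 ng/ml. Each agonist group had 3 libraries at each time, apart from the OX40 group at 18 h with 2. The doses were not matched, so differences between agonists are given side by side and not as a ranking of the receptors. The labels do not say whether libraries of a group came from separate mice or cultures, so p-values measure the spread between these libraries.

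A dividing cell turns on its mitotic genes after its replication genes. Cyclin A and cyclin B bind the kinase CDK1 and drive entry into mitosis, and Polo and Aurora kinases build the spindle. Kinetochore proteins tie chromosomes to microtubules, the spindle checkpoint delays the anaphase-promoting complex until all are attached, and separase then cuts the cohesin that holds sister chromatids together. Many of these genes are held off in resting cells by the DREAM complex and turned on later by B-MYB and FOXM1 bound to the MuvB core, which contacts a promoter motif called the cell cycle homology element. CCAAT boxes bound by NF-Y lie near that element in many of these promoters. Most resting Tregs are not dividing, and their expansion after stimulation through CD3 and CD28 needs this programme.

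The promoters of 5 genes are shown because their genes mark the ends of the range in the controls between 18 h and 36 h. Ccnb2, Hmmr and Ube2c had the largest log2 fold changes of the members with a promoter entry, and Ttk and Ndc80 the smallest. Each sequence runs 5′ to 3′ along the gene's strand from 250 bases before to 50 after the annotated start, as RefSeq gives it for GRCm38.p6. The positions are Ccnb2 chr9:70421505-70421804 (minus strand), Hmmr chr11:40733388-40733687 (minus strand), Ube2c chr2:164769679-164769978 (plus strand), Ndc80 chr17:71526808-71527107 (minus strand), Ttk chr9:83834439-83834738 (plus strand). Capitals mark TTTGAA and TTCGAA, forms of the cell cycle homology element, and CCAAT, each on either strand, so that TTCAAA and ATTGG are reverse matches.
Ccnb2: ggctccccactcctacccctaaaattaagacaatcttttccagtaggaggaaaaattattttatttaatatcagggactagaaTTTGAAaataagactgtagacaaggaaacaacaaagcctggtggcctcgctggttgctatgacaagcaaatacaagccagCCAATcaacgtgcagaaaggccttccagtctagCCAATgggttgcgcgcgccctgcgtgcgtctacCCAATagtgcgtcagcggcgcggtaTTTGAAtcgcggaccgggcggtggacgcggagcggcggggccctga
Hmmr: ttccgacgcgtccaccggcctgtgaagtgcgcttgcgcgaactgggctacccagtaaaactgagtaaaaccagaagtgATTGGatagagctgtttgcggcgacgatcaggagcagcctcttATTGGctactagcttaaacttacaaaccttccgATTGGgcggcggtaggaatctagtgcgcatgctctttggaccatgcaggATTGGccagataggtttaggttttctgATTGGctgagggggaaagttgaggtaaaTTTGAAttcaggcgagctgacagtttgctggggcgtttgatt
Ube2c: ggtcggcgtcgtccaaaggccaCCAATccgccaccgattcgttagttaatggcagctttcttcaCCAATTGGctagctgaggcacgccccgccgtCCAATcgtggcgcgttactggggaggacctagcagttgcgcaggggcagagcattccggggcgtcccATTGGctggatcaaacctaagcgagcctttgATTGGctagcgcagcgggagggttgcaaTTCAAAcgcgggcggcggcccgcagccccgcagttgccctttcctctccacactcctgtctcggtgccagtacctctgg
Ndc80: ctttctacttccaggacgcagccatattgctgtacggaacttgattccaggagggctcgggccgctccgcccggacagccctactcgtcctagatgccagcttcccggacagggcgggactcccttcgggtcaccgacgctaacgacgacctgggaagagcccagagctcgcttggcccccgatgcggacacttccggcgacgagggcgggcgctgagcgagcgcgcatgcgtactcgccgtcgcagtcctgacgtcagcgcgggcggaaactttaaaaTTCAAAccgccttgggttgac
Ttk: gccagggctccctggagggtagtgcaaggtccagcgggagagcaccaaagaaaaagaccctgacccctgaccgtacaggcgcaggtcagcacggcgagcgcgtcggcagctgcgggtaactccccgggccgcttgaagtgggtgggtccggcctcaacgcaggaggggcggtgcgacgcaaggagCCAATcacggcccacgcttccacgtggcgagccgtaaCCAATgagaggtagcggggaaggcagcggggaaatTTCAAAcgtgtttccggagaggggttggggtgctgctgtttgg

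Ccnb2, Hmmr and Ube2c, with the steepest late rise, and Ttk and Ndc80, with the shallowest, hold the letters TTTGAA on either strand close to the start. In Ccnb2 the element began 5 bases after the start and followed 3 CCAAT boxes, which began 87, 54 and 21 bases before it. In Hmmr it began 9 bases after the start, behind 5 reverse CCAAT boxes, and in Ttk 8 bases after the start, behind 2. Ndc80 had the element at 30 bases after the start and no CCAAT box. In Ube2c a forward and a reverse CCAAT match share bases, so its 6 matches mark fewer separate places.

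Over the 25 members with a promoter entry, 20 (80.0%) held TTTGAA or TTCGAA on either strand, against 19.4% of 27025 RefSeq promoters of the same 300 bases. Within 60 bases before to 50 after the start the shares were 76.0% of members and 5.86% of all promoters. CCAAT was found in 22 of the 25 members (88.0%) and in 37.9% of all promoters, and 2 or more CCAAT matches in 15 of the 25 and in 12.2% of all promoters. Among 85 promoters of a wider list of G2 and mitosis genes 54.1% held TTTGAA or TTCGAA, and among 27 promoters of DNA replication genes 22.2% did. Birc5 and Nusap1 had neither motif in this window, Ccnb1, Nek2 and Cenpe had CCAAT without the element, and Ndc80 had the element without CCAAT. These are matches of letters and not sites of binding. Ccna2, Kif20a, Tpx2, Aurkb and Pbk have no entry in the promoter table.

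**Figure D1:**
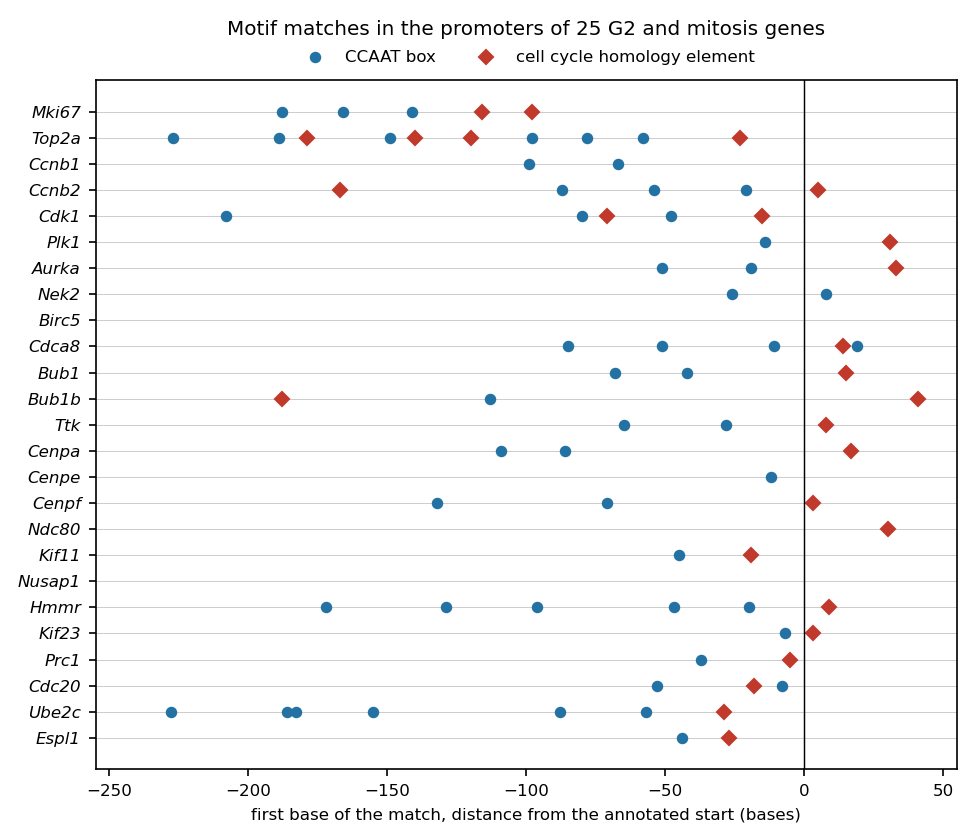
Places of motif matches in the 25 member promoters. The x axis is the distance in bases of the first base of each match from the annotated start, with 1 row per gene, circles for CCAAT and diamonds for TTTGAA or TTCGAA on either strand. Most diamonds lie within 60 bases before to 50 after the start, where 76.0% of these promoters have one.

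The labelled cell type held up against its markers: Foxp3, Cd3e, Cd4, Il2ra, Ctla4 and Ikzf2 had counts in all 11 groups. Markers of B and plasma cells, 8 of 8 detected, summed to 720 to 760 CPM (counts scaled for library size and composition) in the resting libraries, 297 to 319 CPM in the 18 h controls and 271 to 287 CPM in the 36 h controls. Myeloid markers summed to 8.69 to 9.56 CPM at rest, and to at most 1.23 CPM in the 18 h controls, where Itgam, Cd14, S100a8 and S100a9 were at 0. The part of these cells in the differences from resting was not tested. Libraries held 11880270 to 38083925 expected counts. In 6 libraries transcripts of a ribosomal RNA locus took more than 10000 CPM: replicates 1 and 2 of the 18 h control (10240 and 26510 CPM), replicate 1 of TNFR2 at 18 h and at 36 h, replicate 3 of DR3 at 36 h and replicate 2 of OX40 at 36 h. Agonist results at 18 h are therefore also given without them.

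The mitotic programme was higher in the stimulated controls than at rest at both times. No IL-2 dose or culture time is given for the resting group, so stimulation, IL-2 and time in culture cannot be told apart. Summed over the 30 genes, the resting libraries held 263.6 to 277.6 CPM, the 18 h controls 1675 to 1696 CPM and the 36 h controls 6209 to 6557 CPM. No library of one state reached the range of another. At 18 h 29 members were higher than at rest and 1 was lower by edgeR's quasi-likelihood test at an adjusted p below 0.05. That test called 40.9% of all genes higher and 40.1% lower. At 36 h 30 of 30 were higher than at rest, where 42.4% of all genes were called higher and 42.1% lower. All 30 were also higher at 36 h than at 18 h, a comparison that called 25.6% of all genes higher and 26.6% lower. The median log2 fold changes of the members were 3.08 at 18 h and 5.10 at 36 h against rest, or 8.44-fold and 34.4-fold. In these bulk libraries more cells in G2 or mitosis and more mitotic RNA per cell cannot be told apart.

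**Figure D2:**
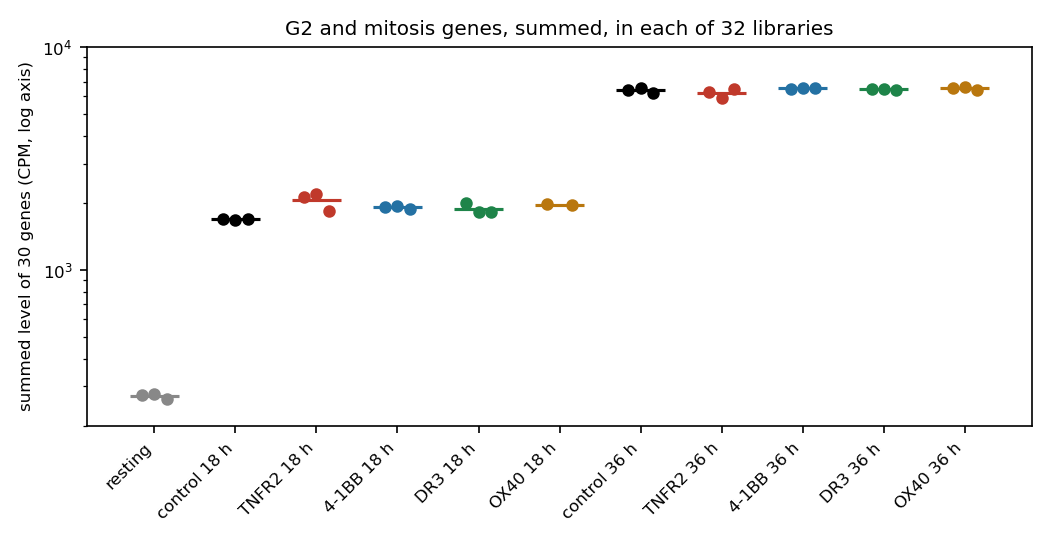
Summed level of the 30 genes in each of 32 libraries. The y axis is CPM on a log scale, points are libraries and bars are group means. Resting libraries lie at 263.6 to 277.6 CPM, 18 h controls at 1675 to 1696 CPM and 36 h controls at 6209 to 6557 CPM, and the TNFR2 group at 18 h is the most spread of the 18 h groups (1832 to 2200 CPM).

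The largest rise by 18 h was that of Pbk, a mitotic kinase, followed by Ccnb1, which encodes cyclin B1. Pbk stood at 0.828, 1.53 and 0.626 CPM in the resting libraries, from 8 to 25 counts, and at 19.9, 20.0 and 20.2 CPM in the 18 h controls. Its log2 fold change was 4.27 ± 0.15 (SE; edgeR, Benjamini-Hochberg adjusted p = 4.42e-30). Ccnb1 went from 1.52, 2.15 and 1.17 CPM to 29.6, 28.6 and 31.7 CPM, a log2 fold change of 4.18 ± 0.15 (SE; edgeR adjusted p = 1.52e-23). In both genes the groups were far apart and the 18 h controls lay close together. Cdk1, the kinase that cyclin B activates, and Aurkb, the kinase of the chromosomal passenger complex, each rose 18.0-fold.

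The groups of roles moved unevenly. Median log2 fold changes at 18 h against rest were 4.06 for the cyclins with Cdk1, 3.80 for the spindle checkpoint genes Bub1, Bub1b and Ttk, and 3.41 for the anaphase and mitotic exit genes Cdc20, Ube2c and Espl1. Lower medians were found for the midzone and cytokinesis genes Kif20a, Kif23 and Prc1 (1.90) and for the centromere and kinetochore genes Cenpa, Cenpe, Cenpf and Ndc80 (2.13). By 36 h those medians had become 5.91, 5.34, 5.40, 4.01 and 3.93. The differences between role groups are descriptions of these genes and were not tested.

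Cenpa was the one member that fell by 18 h. It encodes CENP-A, the histone H3 variant that marks the centromere, and lies on chromosome 5 at 30666777 to 30674830 (mm10, plus strand). Resting libraries held 45.4, 43.9 and 47.6 CPM, from 608 to 716 counts, the 18 h controls 28.6, 29.1 and 26.8 CPM, and the 36 h controls 122, 115 and 122 CPM. The 3 states did not overlap: 18 h was the lowest and 36 h the highest. The log2 fold change was −0.69 ± 0.07 at 18 h (SE; edgeR adjusted p = 5.38e-13) and 1.39 ± 0.06 at 36 h against rest (SE; edgeR adjusted p = 1.99e-26). Per length, in TPM, Cenpa had the highest level of the 30 genes at rest, 60.7 TPM and 30.7% of their summed TPM, ahead of Top2a at 18.4 TPM and Mki67 at 14.8 TPM. At 36 h it ranked 7 with 182 TPM.

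Hjurp, the chaperone that places CENP-A at centromeres and a gene of the wider list, had the same order of states. Its mean was 218 ± 8.81 CPM at rest, 183 ± 3.13 CPM at 18 h and 297 ± 5.45 CPM at 36 h (SD, n = 3). It fell by 0.26 on the log2 scale by 18 h, with an SE of 0.04 (edgeR adjusted p = 4.36e-08).

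Both B-type cyclin genes were in another order at rest than after stimulation. At rest Ccnb1 was the lower by TPM in every library, with 1.41, 1.98 and 1.33 TPM against 5.87, 6.30 and 4.82 TPM for Ccnb2. In the 18 h controls Ccnb1 held 30.6, 27.4 and 29.6 TPM and Ccnb2 9.55, 8.77 and 11.1 TPM. In the 36 h controls the values were 138, 146 and 146 TPM for Ccnb1 and 87.0, 85.4 and 88.8 TPM for Ccnb2. The ratio of Ccnb1 to Ccnb2 was thus 0.240 to 0.314 at rest, 2.68 to 3.20 at 18 h and 1.59 to 1.71 at 36 h. Ccnb1 rose in both intervals, by 4.18 on the log2 scale from rest to 18 h and by a further 2.45 from 18 h to 36 h. Ccnb2 rose mostly after 18 h. It had the smallest rise of any member that rose by 18 h, 0.92 ± 0.13 (SE) on the log2 scale (edgeR adjusted p = 2.32e-08).

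Between 18 h and 36 h Ccnb2 made the largest step of the 30 genes. It held 7.61, 7.27 and 8.95 CPM in the 18 h controls and 71.2, 69.2 and 72.4 CPM in the 36 h controls. The log2 fold change was 3.15 ± 0.08, or 8.89-fold (SE; edgeR adjusted p = 8.82e-35). Hmmr, a spindle protein that binds hyaluronan outside the cell, went from 16.6, 18.5 and 19.3 CPM to 128, 134 and 120 CPM. Its log2 fold change was 2.81 ± 0.08 (SE; edgeR adjusted p = 1.15e-22). Ube2c, the ubiquitin-conjugating enzyme of the anaphase-promoting complex, went from 26.7, 26.3 and 29.6 CPM to 154, 153 and 157 CPM, a log2 fold change of 2.48 ± 0.06 (SE; edgeR adjusted p = 2.09e-28). None of these ranges touched.

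The smallest steps in that interval were those of Ttk, Ndc80 and Bub1b. Ttk, which encodes the checkpoint kinase MPS1, went from 16.8, 16.0 and 17.8 CPM to 43.9, 44.3 and 43.4 CPM, a log2 fold change of 1.38 ± 0.07 (SE; edgeR adjusted p = 1.31e-22). Ndc80, a microtubule-binding kinetochore subunit, went per length from 17.0, 19.1 and 18.0 TPM to 45.8, 49.5 and 46.0 TPM, a log2 fold change of 1.39 ± 0.06 (SE; edgeR adjusted p = 2.50e-25). Bub1b, which encodes the checkpoint protein BUBR1, went from 62.0, 65.7 and 62.9 CPM to 174, 172 and 175 CPM, a log2 fold change of 1.45 ± 0.04 (SE; edgeR adjusted p = 2.02e-31). Here too no 36 h library came near the 18 h range.

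Set as a share of the log2 rise from rest to 36 h, the members had a median of 59.5% reached by 18 h. Ttk (74.2%), Pbk (74.0%), Aurkb (73.0%) and Cdk1 (72.5%) had the highest shares, and Kif23 (47.7%), Prc1 (47.3%), Ccnb2 (22.6%) and Cenpa (−49.8%) the lowest. Kif23 and Prc1 work at the spindle midzone at the end of division. Other late-acting members had higher shares: Kif20a, of the same role group, had 54.4%. Espl1, Cdc20 and Ube2c, of anaphase and mitotic exit, had 68.9%, 59.5% and 57.8%. For 34 DNA replication genes, such as the Mcm helicase subunits, the median share was 83.8%, from 58.6% to 108%. Those 34 genes were all called higher at 18 h than at rest (40.9% of all genes), Mcm3 by 3.05 ± 0.04 and Mcm5 by 2.92 ± 0.04 (log2, SE). From 18 h to 36 h 29 of them were called higher and 2 lower (25.6% and 26.6% of all genes), the latter Pold1 (−0.12 ± 0.04) and Mcm2 (−0.10 ± 0.03). The difference in shares between the lists is a description of 3 control states and was not tested.

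**Figure D3:**
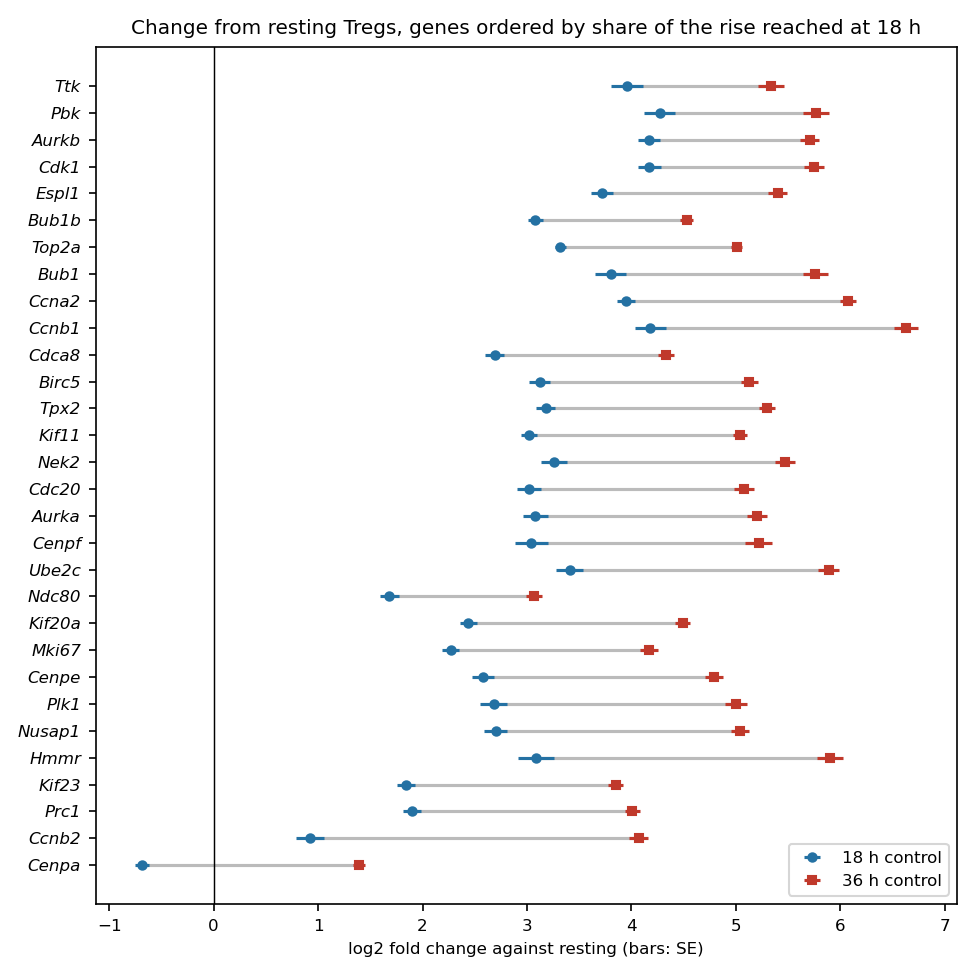
Log2 fold change against resting of each of the 30 genes in the control at 18 h (circles) and at 36 h (squares). Bars are SE, the grey line joins the times, and genes are ordered by the share of the rise reached by 18 h. Ttk is at the top with 74.2%, Ccnb2 and Cenpa are at the bottom, and Cenpa is the one gene left of 0 at 18 h.

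The order by level changed little at the top. Top2a, the topoisomerase that untangles replicated DNA, led at both times with 154 TPM at 18 h and 497 TPM at 36 h. Cdk1 followed at 18 h with 110 TPM and held 315 TPM at 36 h, next after Ube2c with 325 TPM. Mki67, which encodes the proliferation marker Ki-67, stood at 62.7 TPM and 234 TPM. The lowest of the 30 at 36 h were Cenpf (32.5 TPM), a large kinetochore protein, and Ttk (27.3 TPM).

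Of 102 symbols of the wider list 100 were found and tested. At 18 h against rest 91 were higher and 7 lower, beside 40.9% and 40.1% of all genes. At 36 h against rest 94 were higher and 4 lower (42.4% and 42.1% of all genes), and between the times 93 and 2 (25.6% and 26.6%). By p-value Cdc25a, a phosphatase that activates cyclin-dependent kinases (1.99 ± 0.04), Smc2 of condensin (2.18 ± 0.05), the checkpoint ATPase Trip13 (4.24 ± 0.10) and Kntc1 (3.59 ± 0.09) led the rise at 18 h. The 7 lower genes were Cdc25b, Smc4, Hjurp, Lin37, Pttg1, Anapc2 and Anapc11. Smc4, the partner of Smc2 in condensin, went the other way from Smc2: it held 1155 ± 122 CPM at rest, 557 ± 16.3 CPM at 18 h and 756 ± 54.9 CPM at 36 h (SD, n = 3). Cdc25b, the phosphatase paralogue of Cdc25a, fell by 0.95 on the log2 scale, with an SE of 0.06, by 18 h. Between the times the leaders included Ncapd2 of condensin (1.54 ± 0.04), the motors Kif22 (1.96 ± 0.05), Kif18b (2.04 ± 0.06) and Kif2c (2.22 ± 0.06), the spindle protein Spag5 (1.91 ± 0.05), the kinetochore subunit Nuf2 (1.69 ± 0.05), Gtse1 (1.80 ± 0.05), the cytokinesis regulators Ect2 (1.96 ± 0.06) and Racgap1 (1.41 ± 0.04), and Incenp of the passenger complex (1.29 ± 0.04). All are log2 fold changes with SE.

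The agonists shifted the 18 h level by far less than time did. With the TNFR2 agonist 25 members were higher than in the 18 h control and none lower, by edgeR's test, which called 15.8% of all genes higher and 15.3% lower. The 4-1BB agonist gave 13 higher and 0 lower (12.7% and 13.1% of all genes), the DR3 agonist 9 and 0 (9.66% and 9.94%), and the OX40 agonist 12 and 1 (9.32% and 9.71%). Median log2 fold changes of the members were 0.28, 0.16, 0.15 and 0.17, against medians over all tested genes between −0.01 and 0. None of the members reached 2-fold in any agonist comparison. The 4 comparisons at each time share the same 3 control libraries, so a control that stands apart moves all 4 together. Markers of other cells also differed from the controls at 18 h. Those of B and plasma cells, 8 of 8 detected in each group, summed to 369 to 398 CPM with TNFR2, 410 to 426 with 4-1BB, 325 to 340 with DR3 and 343 to 353 with OX40, against 297 to 319 CPM in the controls. Those of other lymphocytes (NK, CD8 T and gamma-delta T cells), 5 or 6 of 8 detected, summed to 55.5 to 62.4, 55.2 to 59.8, 68.3 to 72.9 and 71.1 to 72.3 CPM in the same order, against 46.7 to 49.3 CPM, with Ncr1 and Klrd1 at 0 in all 5 groups. Myeloid markers, 3 to 5 of 8 detected, summed to at most 0.42 CPM with any agonist at 18 h, with S100a8 and S100a9 at 0. All agonist libraries thus lay above the controls in both lymphocyte sums, and the part of these cells in the members' differences was not tested.

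The TNFR2 effect at 18 h was not even over its libraries. The members summed to 2115, 2200 and 1832 CPM in replicates 1 to 3, against 1675 to 1696 CPM in the controls. Replicate 3 lay nearest to the controls, and still above them. Leaving out single libraries gave 21 to 27 members higher with TNFR2, 7 to 11 with 4-1BB, 5 to 12 with DR3 and 4 to 11 with OX40. The lowest counts came without control replicate 2 or 4-1BB replicate 2 (7 with 4-1BB), without control replicate 1 or DR3 replicate 1 (5 with DR3) and without OX40 replicate 1 (4 with OX40). Without the libraries rich in the ribosomal locus transcript, which leaves 1 control at 18 h, 8 members were higher with the TNFR2 agonist, 4 with 4-1BB, 3 with DR3 and 4 with OX40. The medians were then 0.22, 0.13, 0.13 and 0.16. The part of the ribosomal signal in these differences was not tested.

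Plk1, the Polo kinase of mitotic entry, had the largest TNFR2 difference at 18 h. It held 34.9, 38.9 and 27.1 CPM with the agonist and 23.6, 22.9 and 24.7 CPM in the controls, a log2 fold change of 0.50 ± 0.08 (SE; edgeR adjusted p = 7.56e-06). The groups did not overlap, and replicate 3 was the lowest of the treated libraries. Its log2 fold changes with 4-1BB (0.16), DR3 (0.20) and OX40 (0.10) did not pass the test. Without the libraries rich in the ribosomal locus transcript the log2 fold change with TNFR2 was 0.40 and the call was lost (edgeR adjusted p = 0.0592, with 1 control).

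Nusap1, a protein that bundles spindle microtubules, was called higher with all 4 agonists at 18 h. It held 24.2, 24.2 and 21.6 CPM in the controls, 36.2, 31.5 and 28.7 CPM with TNFR2, and 31.7, 31.6 and 31.3 CPM with 4-1BB. The DR3 libraries held 31.1, 27.2 and 28.4 CPM and the OX40 libraries 30.1 and 31.7 CPM. No treated library fell into the control range. The log2 fold changes were 0.47 ± 0.07, 0.44 ± 0.07, 0.31 ± 0.07 and 0.41 ± 0.07 (SE; edgeR adjusted p = 1.06e-07, 5.32e-07, 0.000662 and 3.00e-05). Nusap1 (chromosome 2, 119618298 to 119651244, mm10) overlaps Oip5, itself a centromere gene, and without strand their reads may be shared.

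Espl1 encodes separase, the protease that cuts cohesin, and was the one member called higher in all 8 agonist comparisons. It lies on chromosome 15 at 102296266 to 102324357 (mm10, plus strand). At 18 h the controls held 43.2, 38.2 and 42.4 CPM, and the treated libraries 59.1, 59.6 and 48.8 (TNFR2), 47.9, 48.2 and 48.7 (4-1BB), 48.9, 47.4 and 48.9 (DR3) and 52.3 and 46.2 CPM (OX40). At 36 h the controls held 138, 125 and 133 CPM. The treated libraries then held 145, 142 and 146 (TNFR2), 152, 158 and 160 (4-1BB), 157, 157 and 143 (DR3) and 150, 142 and 152 CPM (OX40). At neither time did any treated library fall into the control range. The log2 fold changes were 0.44 ± 0.06, 0.23 ± 0.06, 0.23 ± 0.06 and 0.26 ± 0.07 at 18 h, and 0.13 ± 0.05, 0.25 ± 0.05, 0.21 ± 0.05 and 0.17 ± 0.05 at 36 h (SE). The edgeR adjusted p was between 1.26e-07 and 0.00606 at 18 h and between 9.28e-05 and 0.0443 at 36 h. The TNFR2 call at 36 h stood in 5 of 13 alternative fits and the 4-1BB call at 36 h in 13 of 13. Without the libraries rich in the ribosomal locus transcript, which leaves 1 control, the 18 h log2 fold changes were 0.18 with 4-1BB, 0.19 with DR3 and 0.22 with OX40. Those 3 calls were then lost (edgeR adjusted p = 0.149, 0.181 and 0.124), and the TNFR2 call was kept at 0.35.

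Top2a and Ccna2 were, with Nusap1 and Espl1, the members called higher with all 4 agonists at 18 h. Top2a held 369, 365 and 364 CPM in the controls, 456, 473 and 415 CPM with TNFR2 and 448 and 449 CPM with OX40. Its log2 fold changes were 0.29 ± 0.04 with TNFR2, 0.18 ± 0.04 with 4-1BB, 0.20 ± 0.04 with DR3 and 0.29 ± 0.05 with OX40 (SE). Ccna2, which encodes cyclin A2, held 72.0, 72.6 and 70.0 CPM in the controls and 96.4, 80.1 and 79.9 CPM with DR3, where replicate 1 was the highest. Its log2 fold changes ran from 0.18 with 4-1BB to 0.27 with TNFR2. Without the libraries rich in the ribosomal locus transcript Top2a was at 0.19 with 4-1BB and 0.21 with DR3, and Ccna2 at 0.21 with 4-1BB and 0.24 with OX40. These log2 fold changes were no smaller than with all libraries, and with 1 control left their calls were lost, at edgeR adjusted p between 0.0527 and 0.0932. Ccna2 overlaps Exosc9, so part of its reads may belong there. The same limit holds for Ube2c (overlapping Tnnc2), Cdc20 (Elovl1), Cdca8 (9930104L06Rik), Prc1 (Rccd1) and Kif20a (Cdc23).

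Members that stayed out of the 18 h calls with TNFR2 were Ccnb1 (log2 fold change 0.18, edgeR adjusted p = 0.0689), Ttk (0.18, 0.0798), Hmmr (0.15, 0.288), Ndc80 (0.05, 0.590) and Cenpa (−0.05, 0.638). Ccnb1, Ttk, Hmmr and Ndc80 were called with none of the 4 agonists at 18 h. Cenpa was again apart from the rest, with negative log2 fold changes in the 4 comparisons. With OX40 it held 27.9 and 20.4 CPM against 28.6, 29.1 and 26.8 CPM in the controls and was called lower (−0.21 ± 0.08, SE; edgeR adjusted p = 0.0458). The 2 OX40 libraries differed more from each other than the controls did, 1 of them lay within the control range, and without replicate 2 the log2 fold change was −0.02 (edgeR adjusted p = 0.943).

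Ccnb2 and Cenpf were among the members with larger log2 fold changes at 18 h. Ccnb2 held 12.9, 10.1 and 8.29 CPM with TNFR2 against 7.61, 7.27 and 8.95 CPM in the controls (0.41 ± 0.10, SE; edgeR adjusted p = 0.00164), and the ranges overlapped. Without the libraries rich in the ribosomal locus transcript its log2 fold change with TNFR2 was 0.03, and those of Cenpf (0.27, adjusted p = 0.336) and Ube2c (0.22, adjusted p = 0.203) did not pass the test. Cenpf held 59.1, 60.7 and 48.1 CPM with TNFR2 against 40.5, 40.7 and 44.8 CPM (0.41 ± 0.10, SE; edgeR adjusted p = 0.00200), with no overlap. Ube2c held 39.8, 39.7 and 29.9 CPM with TNFR2 against 26.7, 26.3 and 29.6 CPM, so that replicate 3 was level with the highest control. Kif23, a motor of the midzone, held 30.5 and 31.6 CPM with OX40 against 24.9, 24.7 and 24.6 CPM (0.33 ± 0.07, SE; edgeR adjusted p = 0.000261).

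**Figure D4:**
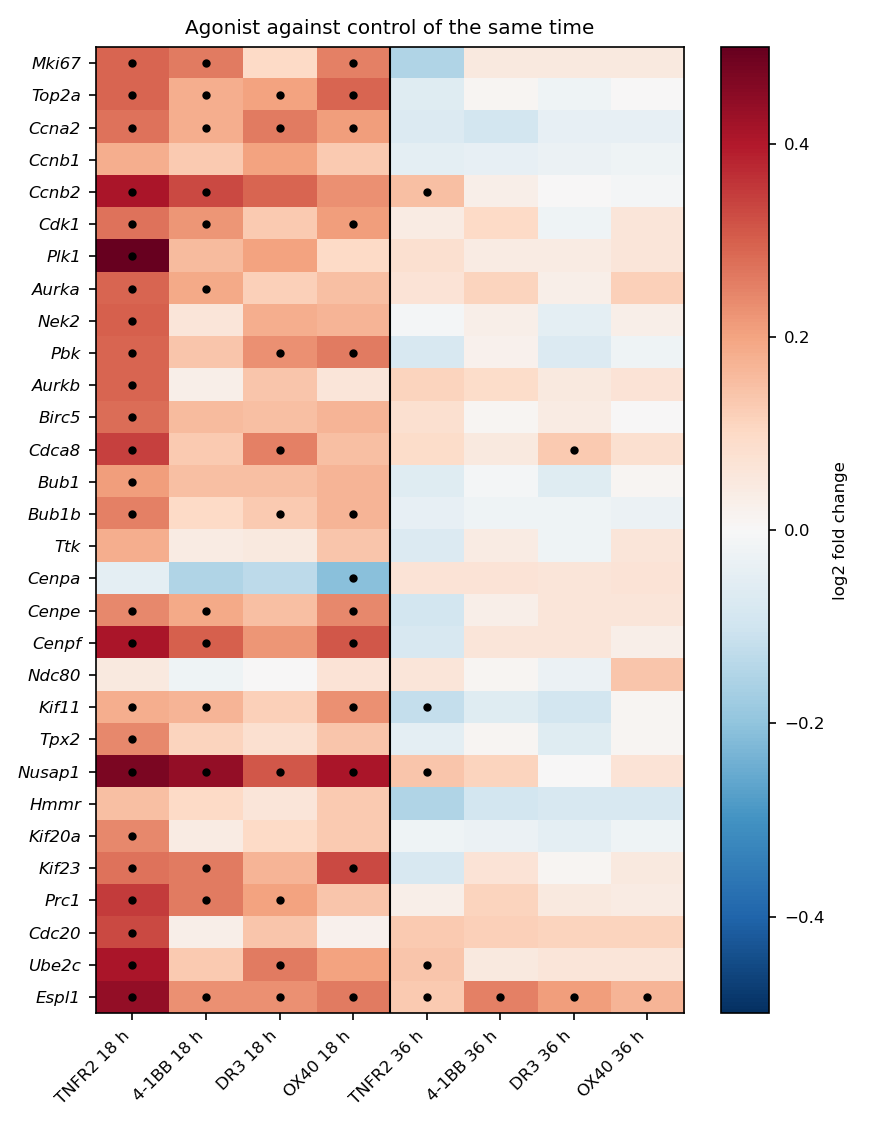
Log2 fold change of each of the 30 genes with each agonist against the control of the same time. Colour gives the log2 fold change and dots mark calls by edgeR at an adjusted p below 0.05. The 18 h columns hold 25, 13, 9 and 13 dots in the order TNFR2, 4-1BB, DR3 and OX40, and Espl1 has a dot in all 8 columns.

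At 36 h few members were called. The TNFR2 agonist gave 4 members higher and 1 lower than the 36 h control, by edgeR's test, which called 13.0% of all genes higher and 11.9% lower. The 4-1BB agonist gave 1 higher (10.9% of all genes), DR3 2 (6.97%) and OX40 1 (7.12%), and none of these 3 gave a member lower. Shares of all genes called lower were 11.5%, 6.39% and 6.21%. For 30 members these counts of higher genes are near or below the shares over all genes, and those of lower genes are below them. The summed level was 5910 to 6499 CPM with TNFR2, 6510 to 6562 with 4-1BB, 6396 to 6489 with DR3 and 6414 to 6636 with OX40, against 6209 to 6557 CPM in the controls, so that all 4 ranges overlapped the control range. The members called higher with TNFR2 were Ccnb2 (0.15 ± 0.05), Nusap1 (0.14 ± 0.05), Ube2c (0.14 ± 0.05) and Espl1 (0.13 ± 0.05), and Kif11, the motor that pushes spindle poles apart, was lower (−0.12 ± 0.04; log2, SE).

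Ccnb2 at 36 h held 76.6, 80.4 and 78.3 CPM with TNFR2 and 71.2, 69.2 and 72.4 CPM in the controls, with no overlap (edgeR adjusted p = 0.0416). Kif11 held 296, 274 and 299 CPM with TNFR2 and 310, 327 and 307 CPM in the controls, also without overlap (edgeR adjusted p = 0.0367). Mki67 and Hmmr had the lowest log2 fold changes, −0.15 each, and did not pass the test (edgeR adjusted p = 0.129 and 0.0805). Mki67 held 1209, 1099 and 1372 CPM with TNFR2 and 1379, 1445 and 1272 CPM in the controls, so the ranges overlapped. Cdca8, a passenger complex subunit, was called higher with DR3 at 36 h (0.13 ± 0.04, SE; edgeR adjusted p = 0.0334), with 113, 108 and 111 CPM against 104, 96.1 and 102 CPM. The calls with TNFR2 at 36 h rested on single libraries: leaving one out gave 0 to 2 members higher and 0 to 3 lower.

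**Figure D5:**
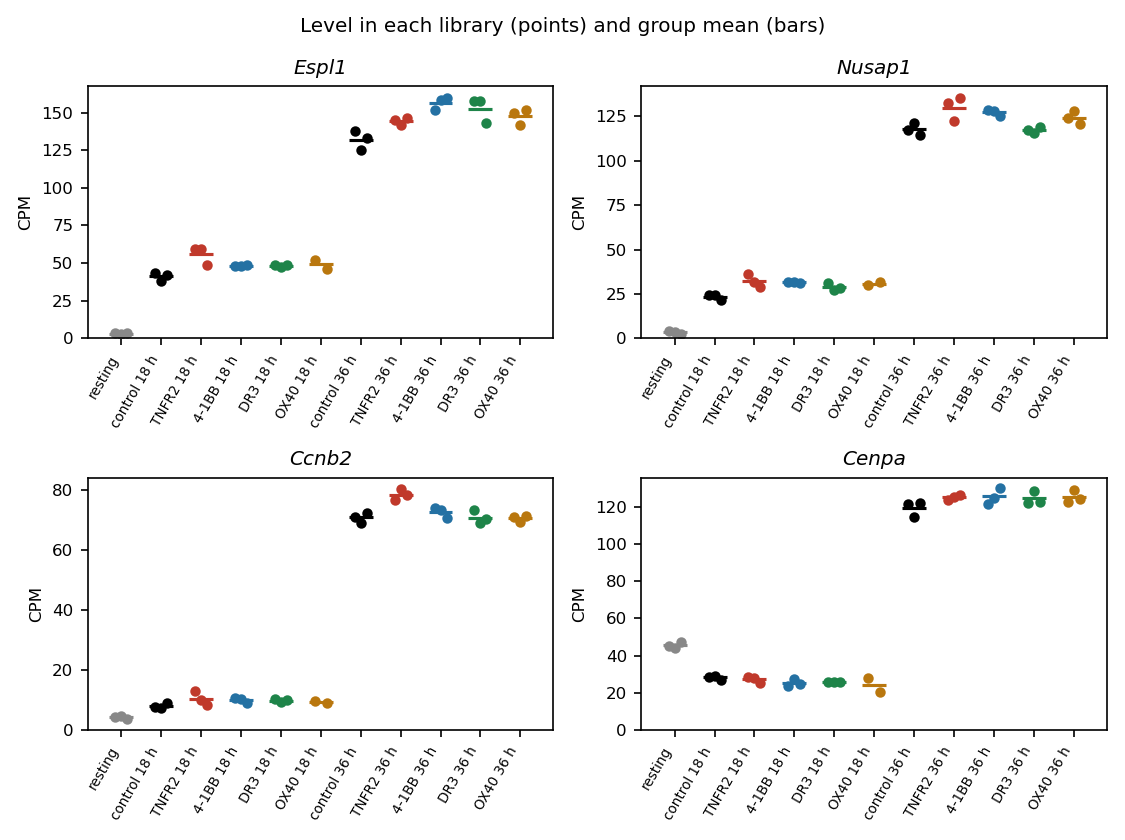
Levels of Espl1, Nusap1, Ccnb2 and Cenpa in each library. The y axes are CPM, points are libraries and bars are group means. Treated Espl1 libraries lie above the controls at both times, Nusap1 libraries at 18 h lie above the controls for each agonist, and Cenpa is lower at 18 h than at rest.

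The change of the agonist effect between the times was tested by itself. For TNFR2 17 members had a lower effect at 36 h than at 18 h and none a higher one, by edgeR's test, which called 3.01% of all genes lower and 3.68% higher. For 4-1BB 3 members were lower (2.03% of all genes), for DR3 3 (1.10%) and for OX40 4 (1.38%), and none were higher (2.34%, 1.22% and 2.10% of all genes). Ccna2 and Nusap1 were among those called for all 4 agonists, and Top2a for TNFR2, DR3 and OX40. Top2a with TNFR2 went from 0.29 at 18 h to −0.06 at 36 h, a difference of −0.35 ± 0.06 (SE; edgeR adjusted p = 4.07e-05). Espl1 differed between the times for TNFR2 (−0.31 ± 0.08) and passed no such test with 4-1BB (0.02 ± 0.08), DR3 (−0.02 ± 0.08) or OX40 (−0.09 ± 0.08; log2, SE). Leaving out replicate 3 of TNFR2 at 18 h gave 28 members lower, leaving out replicate 1 or replicate 2 gave 11, and leaving out the libraries rich in the ribosomal locus transcript gave 1 for each agonist. Over all single libraries left out, the counts of lower members were 0 to 3 for 4-1BB, 0 to 5 for DR3 and 1 to 4 for OX40. The lowest were reached, among others, without control replicate 3 at 18 h (0 for 4-1BB, 1 for OX40) and without DR3 replicate 1 at 18 h (0 for DR3).

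Of 100 wider-list genes 43 were higher and 1 lower with TNFR2 at 18 h (15.8% and 15.3% of all genes). With 4-1BB 25 were higher and 1 lower (12.7% and 13.1%), with DR3 25 and 1 (9.66% and 9.94%), and with OX40 19 and 0 (9.32% and 9.71%). The wider list was not tested against the members. The smallest p-values at 18 h belonged to Pkmyt1, a kinase that holds CDK1 inactive, with log2 fold changes of 0.42 ± 0.06 (TNFR2), 0.34 ± 0.06 (4-1BB) and 0.38 ± 0.06 (DR3), and to the spindle protein Dlgap5, with 0.42 ± 0.06, 0.35 ± 0.06, 0.26 ± 0.06 and 0.35 ± 0.06 (OX40 last; SE). At 18 h with TNFR2 they were followed by Fzr1, an activator of the anaphase-promoting complex (0.39 ± 0.06), and Mybl2, which encodes B-MYB (0.41 ± 0.06), while Smc4 was the lower gene (−0.21 ± 0.07). Of 34 replication genes 24, 17, 15 and 16 were higher at 18 h with TNFR2, 4-1BB, DR3 and OX40 and none lower, beside the same shares of all genes, with Fen1 at 0.37 ± 0.04 with TNFR2 and Lig1 at 0.31 ± 0.04 with 4-1BB. At 36 h the wider list gave 12 higher and 8 lower with TNFR2 (13.0% and 11.9% of all genes), 11 and 5 with 4-1BB (10.9% and 11.5%), 7 and 2 with DR3 (6.97% and 6.39%), and 7 and 2 with OX40 (7.12% and 6.21%). For 100 genes these counts of higher genes are near the shares over all genes, and those of lower genes are below them.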

How the data were processed

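Bulk RNA-seq of 32 Treg libraries in 11 groups was used. Per the submitters' processing notes FastQC, Trimmomatic, STAR 2.5.3a and RSEM 1.2.28 were run on build mm10. The sources used here give neither annotation release nor strand rule, and SMART-Seq v4, named in the labels' protocols, does not mark strand. The authors deposited RSEM expected counts, estimated reads per gene that are not scaled, and TPM, scaled per length by the authors' RSEM run. Gene positions come from GENCODE M21 on mm10, matched by transcript for 53973 of 54087 genes.

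Whole-number roundings of the expected counts went into edgeR 4.0.16 (R 4.3.3): TMM scaling, filterByExpr with the 11 groups (14313 genes kept), 1 mean per group over all 32 libraries, the robust quasi-likelihood F test, and Benjamini-Hochberg adjustment over all genes tested. A gene was called below an adjusted p of 0.05. SE is the absolute log2 fold change over the square root of F. CPM are TMM-scaled, and TPM were used to compare genes. Totals were 11880270 to 38083925 expected counts per library. The scripts were tested on simulated data. Of genes set to change 1.25-fold, 42.9% were recovered between the control times and 60% with TNFR2 at 18 h. A member that was not called may therefore still differ by a small amount.

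The 30 members were matched by symbol. Members, role groups and lists were chosen with earlier results of these data known. Per-library values are given for the members with the 3 largest and 3 smallest log2 fold changes of main comparisons and for exceptions to the majority; from the wider list the 4 smallest p-values in each direction are named (10 between the control times), and further genes were picked after their values were seen. Alternatives were DESeq2 1.42.0, RLE size factors, no filter, a filter of 10 CPM in 3 libraries, the groups compared alone, a replicate block, single libraries left out, and no libraries over 10000 CPM of the ribosomal locus transcript.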

Additional observations from a re-analysis of the deposited data

Results flagged for a closer look

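These members are listed because the effect of an agonist differed between 18 h and 36 h by a test of that difference (edgeR, adjusted p below 0.05). Values are the 36 h effect minus the 18 h effect on the log2 scale, so a negative value means a lower effect at 36 h than at 18 h. At 36 h the agonist group then stood less far above the control, as for Espl1 with TNFR2, or below it, as for Kif11 with TNFR2. With the TNFR2 agonist the differences were −0.49 for Cenpf, −0.44 for Mki67, −0.42 for Plk1, −0.37 for Pbk, −0.35 for Top2a and Kif23, −0.34 for Ccna2, and −0.33 for Cenpe and Nusap1. They were −0.32 for Nek2 and Prc1, −0.31 for Espl1, −0.30 for Bub1b and Kif11, −0.29 for Tpx2, −0.26 for Kif20a and −0.25 for Cdca8.

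With the 4-1BB agonist the differences were −0.33 for Nusap1, −0.26 for Ccna2 and −0.23 for Kif11. With the DR3 agonist they were −0.31 for Nusap1, −0.30 for Ccna2 and −0.22 for Top2a. With the OX40 agonist they were −0.33 for Nusap1, −0.29 for Top2a, −0.28 for Kif23 and −0.25 for Ccna2. The 4 agonists share the 3 control libraries of each time, and 2 of the 18 h controls were among the libraries rich in the ribosomal locus transcript.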

How the results depend on the processing

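No called value of a member changed sign in any alternative, and the counts against rest and between the control times kept 29 higher and 1 lower, 30 and 0, and 30 and 0 in all of them. Agonist counts moved. Members lower with OX40 at 18 h numbered 0 under RLE size factors, DESeq2, the groups compared alone and the replicate block. With no filter on low counts, 2 members were lower with TNFR2 at 36 h, 2 higher with 4-1BB and 1 with DR3 at 36 h, and in the change of effect 6 were lower for DR3 and 1 higher for OX40. With only the groups compared, 1 was lower with 4-1BB at 18 h, 2 lower with TNFR2 and 5 higher with 4-1BB at 36 h, and for the 4-1BB change of effect 1 was higher and 5 lower.

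Without the 6 libraries rich in the ribosomal locus transcript, members higher at 18 h numbered 8 (TNFR2), 4 (4-1BB), 3 (DR3) and 4 (OX40), with 0 lower for OX40. At 36 h 1 was higher with TNFR2 and 1 with DR3, and the change of effect had 1 lower for each agonist. Genes called over the whole table fell at 18 h to 1876, 1873, 1150 and 1181, and for the change of effect to 242, 245, 63 and 90. This setting leaves 1 control library at 18 h, whose spread is taken from the other groups. The cause was not tested.

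Leaving out single libraries gave these ranges. At 18 h members higher were 21 to 27 (TNFR2), 7 to 11 (4-1BB), 5 to 12 (DR3) and 4 to 11 (OX40), and members lower 0 to 1 with 4-1BB and 0 to 1 with OX40. At 36 h TNFR2 gave 0 to 2 higher and 0 to 3 lower, DR3 1 to 2 higher and OX40 0 to 1 higher. The change of effect gave 11 to 28 lower for TNFR2, 0 to 3 for 4-1BB, 0 to 5 for DR3, and 1 to 4 lower and 0 to 1 higher for OX40. All genes called ranged from 1491 to 2534 (OX40, 18 h), 1191 to 1792 (DR3, 36 h), 197 to 334 (DR3 change) and 160 to 921 (OX40 change). Single libraries that moved an 18 h count of higher members by over 1.5 times were control replicate 2 (7 with 4-1BB), 4-1BB replicates 1 (8) and 2 (7), control replicate 1 and DR3 replicate 1 (5 each with DR3), and OX40 replicates 1 (4) and 2 (7). The TNFR2 change of effect moved to 11, 11 and 28 without TNFR2 replicates 1, 2 and 3 at 18 h.

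Replicate numbers did not pair the libraries: deviations of same-numbered libraries correlated at a median of −0.00938 (−0.459 to 0.346), with 25 of 155 pairs over 0.1, and 7 of 32 libraries were closest to their own number. The replicate block gave 0 members lower for OX40 at 18 h and 2 lower for the OX40 change of effect, and the other member counts stayed within 1.5 times. At rest Pbk, Ttk, Ccnb1, Hmmr, Nek2, Bub1 and Ube2c rested on 8 to 49 counts a library, which limits their folds.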

Other observations

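At 36 h, when few of the 30 members were called, some genes of the wider G2 and mitosis list stood apart from the controls with more than 1 agonist. Of its 100 genes 12, 11, 7 and 7 were higher with TNFR2, 4-1BB, DR3 and OX40, beside 13.0%, 10.9%, 6.97% and 7.12% of all genes, so its share of higher calls is about that over all genes. The genes named are those of smallest p-value in it, and nothing is read from them about the list. The 36 h comparisons share 3 control libraries, so these are not independent. Gtse1, which acts on p53 and microtubules in G2, held 111 ± 6.90 CPM in the controls (SD, n = 3) and 140 ± 5.24 CPM with TNFR2, and was called higher with TNFR2 (0.32 ± 0.04), DR3 (0.24 ± 0.04) and OX40 (0.22 ± 0.04; log2, SE). Fzr1, which directs the anaphase-promoting complex late in mitosis and in G1, held 95.4 ± 4.35 CPM in the controls and 119 ± 4.96 CPM with TNFR2. Fam83d, a spindle protein, held 17.7 ± 1.35 CPM in the controls, 23.9 ± 0.557 CPM with TNFR2 and 23.4 ± 1.57 CPM with 4-1BB, and its log2 fold changes were 0.43 ± 0.07, 0.40 ± 0.07, 0.33 ± 0.07 and 0.31 ± 0.07 (SE) in the order TNFR2, 4-1BB, DR3 and OX40.

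Nuf2, the partner of Ndc80 in the kinetochore, was called lower with each agonist at 36 h, where 8, 5, 2 and 2 genes of the wider list were lower, beside 11.9%, 11.5%, 6.39% and 6.21% of all genes. It held 78.0 ± 1.54 CPM in the controls, 68.5 ± 0.902 with TNFR2, 71.0 ± 1.52 with 4-1BB, 69.9 ± 1.10 with DR3 and 70.2 ± 2.10 CPM with OX40 (SD, n = 3). The log2 fold changes were −0.19 ± 0.04, −0.14 ± 0.04, −0.16 ± 0.04 and −0.15 ± 0.04 (SE; edgeR adjusted p = 0.000561, 0.0122, 0.00545 and 0.00927). Ndc80 itself was called in none of these comparisons, with log2 fold changes of 0.06, 0.01, −0.03 and 0.14.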
